A study of Mus musculus with 9 samples.

Results

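The comparison set the hypertrophic cell layer of the mouse growth plate against the round cell layer, the 2 ends of this cartilage. Its members were the 3 hypertrophic and the 3 round arrays, chosen by the layer named in the sample labels, 6 of the 9 arrays of the series. Both layers came from the proximal tibia of newborn (P0) wild-type Black Swiss mice, and no treatment is recorded. Unfixed hind limbs were frozen in embedding medium, and the layers were cut out by hand from cryosections on glass under a dissecting microscope. A sample held tissue from 18 to 20 tibiae, those of the 9 to 10 pups in a litter, and the same 3 litters supplied both layers, so that a litter is a biological replicate. The arrays were paired by replicate number, taken here as the litter. The remaining 3 arrays hold the flat cell layer that lies between the ends, whose signals are given where they place a gene along the cartilage. No step of the protocol isolated chondrocytes from other cells, and a layer is therefore a strip of tissue. In such bulk samples fewer cells of a type and less RNA per cell cannot be told apart.

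The growth plate is the cartilage that lengthens a bone. Round chondrocytes near the joint divide slowly and include the resting cells, flat chondrocytes divide in columns, and the cells then leave the cycle and enlarge into hypertrophic chondrocytes, which lay down type X collagen and mineralise their matrix before vessels, osteoclasts and osteoblasts of the marrow front arrive. A feedback loop between Indian hedgehog from the cells that begin to enlarge and parathyroid hormone-related protein from the joint end sets where hypertrophy starts.

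The values were MAS5 signals, an intensity per probe set that the authors scaled to a common level on each array. Median signals ran from 123.1 to 151.6 over the 9 arrays, and precision is limited by how few arrays there are. The round array of litter 1 stood apart in its 3'/5' ratios, 4.25 for the actin control and 2.59 for the Gapdh control. On the other 8 arrays these ratios were 1.45 to 2.06 and 0.922 to 1.28. Whether RNA integrity or another cause raised the ratios of that round array was not tested. Summed signals of 22 skeletal muscle markers ranged from 162544 to 266443 on the round arrays and from 161871 to 388313 on the hypertrophic arrays, and from 388146 to 639050 on the flat arrays, which share the fit's estimate of spread. Col2a1, the defining collagen gene of cartilage, had a signal of at least 16288 on all 9 arrays. Along the first principal component, with 42.5% of the variance, the layers lay in the order round (-43.51 to -34.32), flat (3.23 to 10.51) and hypertrophic (30.05 to 33.43).

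Signals were compared as log2(signal + 26) in limma with litter as a block, and a gene rose or fell when its Benjamini-Hochberg adjusted p was under 0.05. Differences are hypertrophic minus round on that scale throughout, and the constant of 26 makes them smaller than the ratio of signals for genes of low signal. Of 18194 genes on the arrays, 11313 had a mean signal high enough to test, a filter that a gene high in 1 layer alone could also pass. Of the tested genes 1405 (12.4%) rose and 1435 (12.7%) fell, 25.1% in all, and the median difference over all tested genes was 0.006. The direction was the same in all 3 litters for 1398 of the 1405 and 1427 of the 1435. A difference of at least 2-fold was reached by 464 genes that rose (4.10%) and 549 that fell (4.85%), and one of at least 8-fold by 43 and 26 genes. The median standard error of a difference was 0.179. Round and hypertrophic arrays did not overlap for any gene given below with its signal on each array, other than Sfrp5, Ihh, Vegfa, Gli1 and Col1a1. Leaving out the round array of litter 1 gave 1492 and 1375 genes, while leaving out litter 2 gave 742 and 826, the fewest of any litter or array left out. The genes that rose numbered 934, 837 and 911 without the hypertrophic array of litter 1, 2 or 3, and 921 without litter 3. Without the litter block 862 rose and 962 fell.

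**Figure D1:**
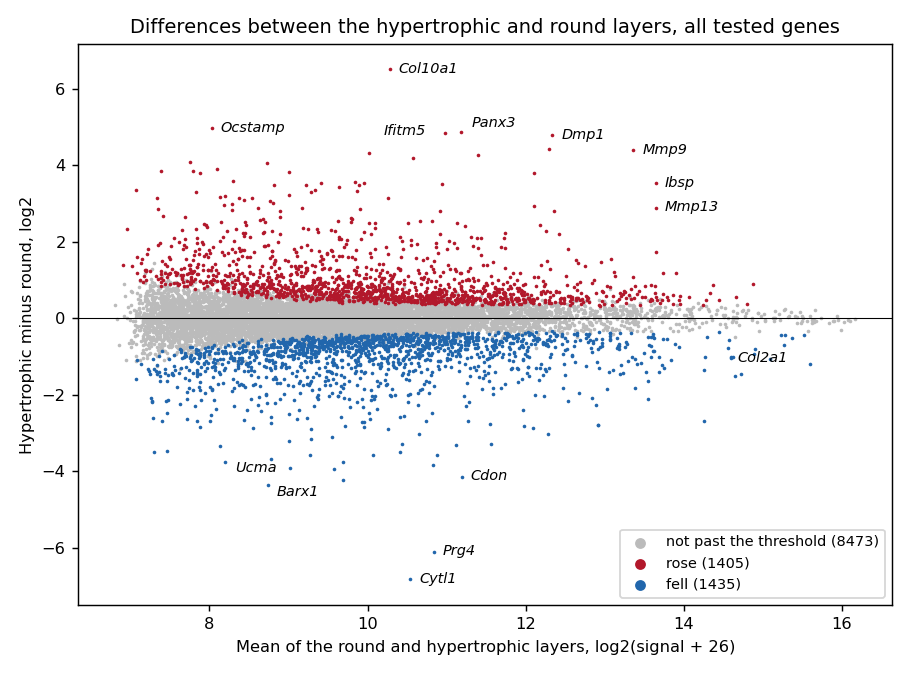
Each point is 1 of the 11313 tested genes, with the mean of the round and hypertrophic layers on the horizontal axis and the difference (hypertrophic minus round) on the vertical axis, both on the log2(signal + 26) scale. Red points are the 1405 genes that rose and blue points the 1435 that fell, grey points did not pass, and Col10a1 at the top (6.503) and Cytl1 at the bottom (-6.83) lie farthest from 0.

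At the round end, genes of the joint surface and of resting chondrocytes were up to 114-fold higher than in the hypertrophic layer. Of 25 such genes 24 were tested, and 17 fell and 2 rose toward the hypertrophic layer, with a median of -1.43. This list and those below were written with earlier results of these data known, so their counts are descriptions only. Cytl1, which encodes a small secreted protein of cartilage, had signals of 14845, 13039 and 20457 in the round layers of litters 1 to 3 and 163, 141 and 60.2 in the hypertrophic layers. Every round array exceeded every hypertrophic array, and the difference was -6.83 (SE 0.29, adjusted p = 4.27e-08). The lubricin gene Prg4, whose product lubricates the joint surface, had signals of 14144, 13112 and 18770.4 in the round and 261, 161 and 174 in the hypertrophic layers. It fell by 6.11 (SE 0.27, adjusted p = 5.25e-08), with no overlap between the groups. Barx1, a homeobox gene of the developing joint, had signals of 1652, 2105 and 2027 against 53.9, 104.01 and 53.8 and fell by 4.37 (SE 0.30, adjusted p = 7.04e-07). Ucma, which encodes a cartilage matrix protein that binds calcium through modified glutamates, had signals of 1840.2, 1958 and 2157 against 107, 137 and 83.1, a difference of -3.91 (SE 0.18, adjusted p = 5.25e-08). Thbs4, a thrombospondin of tendon and cartilage matrix, had signals of 9879, 9792 and 8634 against 793, 724 and 1412 and fell by 3.30 (SE 0.20, adjusted p = 2.56e-07). The arrays of both layers did not overlap for these 5 genes, as was the case for 36.5% of all tested genes. The transcription factor genes Creb5 and Erg, members of the same list, fell by 2.90 and 2.19.

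Gdf5, the ligand gene of the same list that marks the joint interzone, fell by 1.55 (SE 0.25, adjusted p = 0.000645), and other members did otherwise. Sfrp5, a Wnt antagonist gene, had signals of 158, 240.1 and 207 in the round and 120.2, 235 and 87.9 in the hypertrophic layers, which overlapped, and its difference of -0.47 (SE 0.29, adjusted p = 0.265) did not pass. Tnfsf11, the gene of the osteoclast-inducing cytokine RANKL, had signals of 155, 199 and 176 in the round and 1145, 979.8 and 761 in the hypertrophic layers and rose by 2.27 (SE 0.20, adjusted p = 5.70e-06). It and Apoe, a lipid carrier gene (0.54), were the 2 members that rose, and Tnfsf11 alone rose without litter 1 or 2, the hypertrophic array of either or the round array of litter 2. Tnfrsf11b, which encodes the RANKL decoy receptor osteoprotegerin, had signals of 81.8, 131 and 77.8 against 359, 215 and 156 and a difference of 1.09 (SE 0.35, adjusted p = 0.0405), and the p held without the round array of litter 3 (0.0461) but not without any other of the 6 arrays or any litter (adjusted p = 0.0502 to 0.287).

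Cells of the joint capsule and perichondrium could also lie in the round strip. Of 23 tested markers of perichondrium, fibroblasts, tendon and synovium 13 fell and 3 rose, with a median of -0.46, and their summed signal ranged from 472671 to 542635 in the round and from 368121 to 406202 in the hypertrophic layers. Dpt, the dermatopontin gene of connective tissue, fell by 3.83 (SE 0.28, adjusted p = 1.17e-06), Col14a1, a fibril-associated collagen gene, by 2.80, and Tnmd, the tenomodulin gene of tendon, by 2.28, while Thy1, a surface antigen gene of mesenchymal cells, rose by 1.92 (SE 0.14, adjusted p = 1.15e-06). The defining collagens Col1a1 and Col1a2 differed by -0.06 and -0.01 and did not pass (adjusted p = 0.815 and 0.968). The part of these markers in the fall of the joint surface genes was not tested.

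The other genes with the largest falls encode matrix, receptor and enzyme proteins. Cpxm2, a secreted carboxypeptidase-like protein gene, had signals of 3597, 3854 and 3258 in the round and 185, 158 and 151 in the hypertrophic layers and fell by 4.24 (SE 0.20, adjusted p = 5.25e-08). Adgrg2, an adhesion G protein-coupled receptor gene, had signals of 2869, 2847 and 3240.0 against 137, 171 and 201 and fell by 3.96 (SE 0.16, adjusted p = 3.29e-08). Smoc1, the gene of a secreted calcium-binding matrix protein, had signals of 2827, 3340.1 and 2950.2 against 220.2, 172 and 207 and fell by 3.77 (SE 0.18, adjusted p = 5.25e-08). In each of these 3 genes the hypertrophic signals were a small fraction of the round ones on every array pair. C1qtnf2, a member of the C1q and TNF-related family, fell by 3.57, Kera, the keratocan gene, by 3.56, and A4galt, which encodes a glycosyltransferase of globoside lipids, by 3.49. The Kera signal of litter 3 in the hypertrophic layer (1296) was well above those of the other litters (327 and 328), and still below the lowest round signal (4996).

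Cartilage matrix genes were lower at the hypertrophic end. Of 27 tested genes of collagens, proteoglycans and linkers 18 fell and 3 rose, with a median of -1.15. Matn4, a matrilin gene, had signals of 3568, 6049.5 and 4317 in the round and 339.7, 319 and 507 in the hypertrophic layers and fell by 3.49 (SE 0.23, adjusted p = 5.81e-07). Prelp and Fmod, which encode small leucine-rich proteoglycans, fell by 3.28 (SE 0.17, adjusted p = 6.78e-08) and 2.69 (SE 0.19, adjusted p = 7.72e-07). The leucine-rich proteoglycan genes did not move as 1 block, since Lum rose by 0.84 and Dcn by 0.46. Hapln1, the link protein gene that ties aggrecan to hyaluronan, had signals of 8647, 8754 and 10298 against 1492, 1768 and 1931 and fell by 2.40 (SE 0.15, adjusted p = 2.57e-07). Over 23 alternatives of processing or arrays left out, the Hapln1 difference ranged from -2.52 to -1.06 and passed in each. Acan, the aggrecan gene, had signals of 16364, 15988 and 17148 against 6758, 7050.4 and 7608 and fell by 1.21 (SE 0.16, adjusted p = 0.000173). Col2a1, the gene of the main cartilage collagen, had signals of 26624, 29684 and 39870.4 against 16288, 18157 and 21097, the smaller fall of the pair, 0.78 (SE 0.17, adjusted p = 0.00474). The lowest hypertrophic signal was 6758 for Acan and 16288 for Col2a1. Snorc, a proteoglycan gene of cartilage, was the third member that rose (0.81).

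At the hypertrophic end, 16 of 21 tested genes of prehypertrophic and hypertrophic chondrocytes rose and none of the 21 fell, with a median of 2.89, and leaving out the round array of litter 1 also left 16. Col10a1, the gene of type X collagen, had signals of 20.0, 156 and 240.2 in the round layers of litters 1 to 3 and 11228, 12910.4 and 11432 in the hypertrophic layers. The round array of litter 1 was the lowest, and the difference was 6.503 (SE 0.36, adjusted p = 1.15e-07) with it and 5.87 without it. Panx3, a pannexin channel gene, had signals of 305, 494 and 431 against 13099, 12427 and 11946 and rose by 4.87 (SE 0.25, adjusted p = 6.78e-08). Ifitm5, a membrane protein gene of mineralising cells, had signals of 323, 369 and 357 against 11702, 11269.7 and 9489 and rose by 4.85 (SE 0.24, adjusted p = 5.57e-08). Alpl, the tissue-nonspecific alkaline phosphatase gene that frees phosphate for mineral, had signals of 694, 644 and 457 against 12332, 12851 and 10509.9 and rose by 4.27 (SE 0.16, adjusted p = 1.91e-08). For these 4 genes the lowest hypertrophic array was more than 10 times the highest round array. Pth1r, the receptor gene for parathyroid hormone-related protein, had signals of 1685, 1733 and 1316 in the round and 12953, 12988 and 10804 in the hypertrophic layers, and rose by 2.94 (SE 0.17, adjusted p = 1.41e-07). Mmp13, the collagenase gene of late hypertrophic cells, had signals of 3499, 4836 and 6079 against 34750.1, 37012 and 32723 and rose by 2.88 (SE 0.20, adjusted p = 6.68e-07).

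Of a pair of genes known for the hypertrophic transition, Ihh was not tested and Vegfa did not pass. Ihh, the Indian hedgehog gene, was below the filter on low signals, with 124, 111 and 4.18 in the round, 82.9, 142 and 18.3 in the flat and 105, 236 and 213 in the hypertrophic layers, which overlapped. Vegfa, the vessel growth factor gene, had signals of 431, 1139.9 and 711 in the round and 529.5, 726 and 776 in the hypertrophic layers. Its difference was -0.08 (SE 0.23, adjusted p = 0.849), and the round array of litter 2 was the highest of all 6: without that array the difference was 0.28 and did not pass either (adjusted p = 0.405). Stmn1, Bmp6, Fgfr1 and Mef2d also did not pass, with differences of -0.29, -0.20, -0.10 and 0.16.

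**Figure D2:**
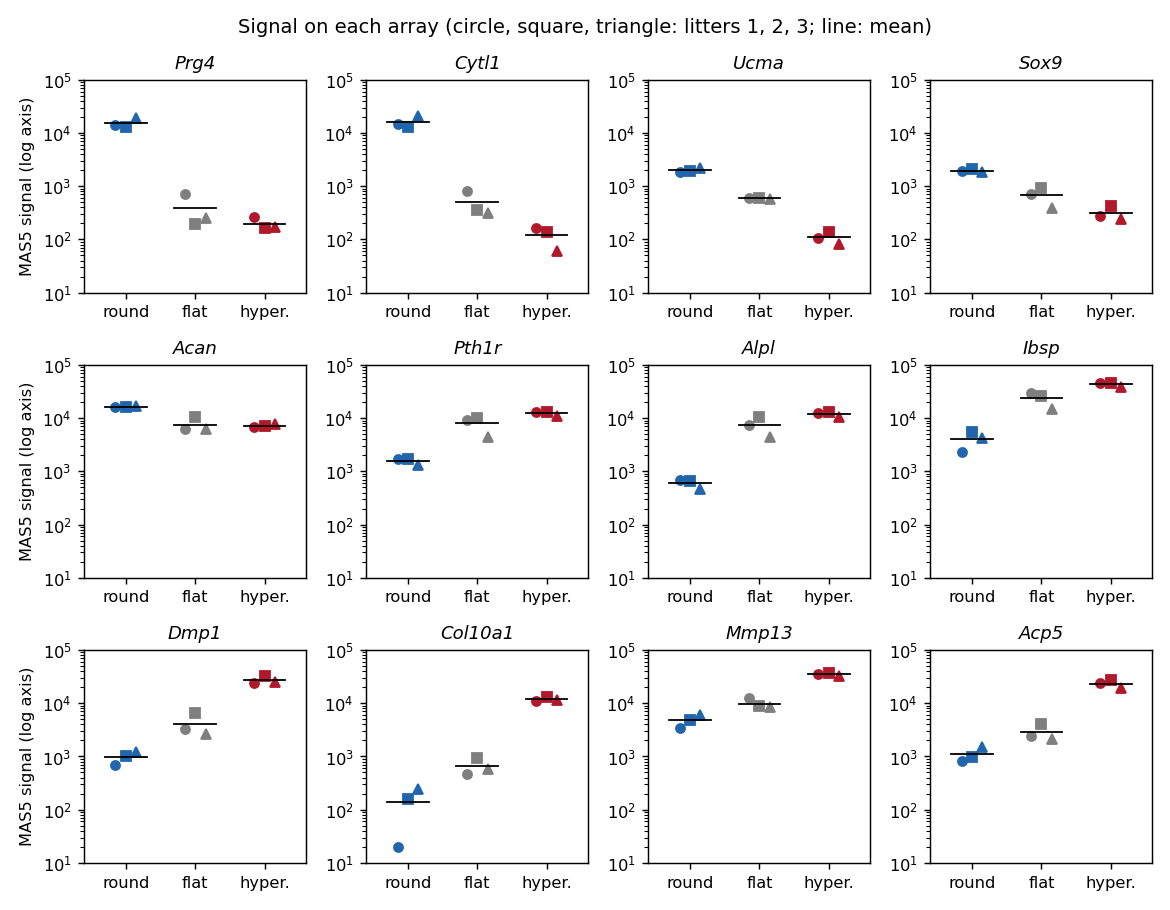
MAS5 signal on a log axis for 12 genes in the round, flat and hypertrophic (hyper.) layers, with 1 point per array, symbols for litters 1 to 3 and a line at the mean of 3 arrays. Round and hypertrophic points do not overlap in any of the 12 panels, and the flat points of Col10a1 (470 to 931) lie nearer the round layer while those of Alpl (4468 to 10316) lie nearer the hypertrophic layer.

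Upstream sequence is shown for 3 genes that rose and 2 that fell, as examples from either end, chosen after their values were seen, whose start site RefSeq lists on GRCm38.p6. Each run covers the 250 bases before the start on the plus strand, 5′ to 3′. Capitals mark letters that match a RUNX motif (TGTGGT, shown as ACCACA where it lies on the minus strand), a SOX motif (ACAATG or ACAAAG) or an AP-1 motif (TGANTCA), the factor families known for regulating chondrocyte genes, searched on both strands with no overlap among the matches shown.
Col10a1 (chr10:34389731-34389980): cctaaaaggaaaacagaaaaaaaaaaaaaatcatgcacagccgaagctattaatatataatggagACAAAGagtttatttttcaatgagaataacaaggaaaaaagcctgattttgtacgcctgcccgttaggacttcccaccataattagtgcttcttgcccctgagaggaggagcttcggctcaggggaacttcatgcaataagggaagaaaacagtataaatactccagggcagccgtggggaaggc
Ibsp (chr5:104299037-104299286): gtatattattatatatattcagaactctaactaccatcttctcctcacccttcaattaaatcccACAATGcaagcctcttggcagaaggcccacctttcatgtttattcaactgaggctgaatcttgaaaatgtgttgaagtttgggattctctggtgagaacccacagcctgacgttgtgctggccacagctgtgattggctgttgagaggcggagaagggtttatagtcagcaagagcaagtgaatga
Mmp13 (chr9:7272264-7272513): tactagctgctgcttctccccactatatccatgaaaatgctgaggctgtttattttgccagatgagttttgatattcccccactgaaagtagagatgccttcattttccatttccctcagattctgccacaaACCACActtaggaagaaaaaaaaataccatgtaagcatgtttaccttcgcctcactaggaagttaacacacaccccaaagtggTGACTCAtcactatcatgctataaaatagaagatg
Cytl1 (chr5:37735269-37735518): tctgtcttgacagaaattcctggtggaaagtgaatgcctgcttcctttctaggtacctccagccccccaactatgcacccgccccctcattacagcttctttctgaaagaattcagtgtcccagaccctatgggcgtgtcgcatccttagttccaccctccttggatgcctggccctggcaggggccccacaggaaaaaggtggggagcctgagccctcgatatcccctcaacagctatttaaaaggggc
Ucma (chr2:4975872-4976121): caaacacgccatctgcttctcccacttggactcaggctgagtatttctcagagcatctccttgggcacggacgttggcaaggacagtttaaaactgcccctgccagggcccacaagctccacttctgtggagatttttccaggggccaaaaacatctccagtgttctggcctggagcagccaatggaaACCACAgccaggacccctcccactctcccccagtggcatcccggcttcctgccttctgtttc
The SOX letters began at -185 from the start in Col10a1 and at -186 in Ibsp, and the RUNX and AP-1 letters at -118 and -35 in Mmp13. Ucma had RUNX letters at -62, and the Cytl1 run held none of the 3 motifs. In windows from 250 bases before to 50 after the start, the RUNX letters stood in 54 of 336 genes that rose at least 2-fold (16.1%), 41 of 421 that fell at least 2-fold (9.74%), 11.9% of 9149 tested genes and 16.9% of all 27025 promoters. The SOX letters stood in 28.3%, 15.2%, 18.5% and 28.8% of the same groups, and the AP-1 letters in 8.93%, 7.13%, 4.65% and 7.93%. A match is a run of letters only, and the median GC content of the windows was 60.3%, 60.7%, 61.3% and 52.7%.

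Genes of the bone matrix rose or did not pass, and genes of mineralisation and phosphate handling went both ways. Of 10 tested genes of bone and mineralised matrix 6 rose and none of the 10 fell, with a median of 1.74. Dmp1, which encodes an acidic phosphoprotein that binds calcium, had signals of 698, 1036 and 1229 in the round and 24500.0, 32939 and 24643 in the hypertrophic layers and rose by 4.78 (SE 0.22, adjusted p = 5.25e-08). Ibsp, the bone sialoprotein gene, had signals of 2324, 5442 and 4200.0 against 45719, 46518 and 38651 and rose by 3.52 (SE 0.26, adjusted p = 1.15e-06). Phex, an endopeptidase gene that restrains phosphate loss, and Omd, the osteomodulin gene, rose by 3.49 (SE 0.19, adjusted p = 1.15e-07) and 2.87 (SE 0.16, adjusted p = 1.45e-07). Among 15 tested genes of mineralisation and phosphate handling, not all of them enzymes or transporters, 5 rose and 5 fell. Smpd3, the neutral sphingomyelinase gene needed for normal mineral, had signals of 159.7, 286 and 193 against 3544, 5127 and 5351 and rose by 4.31 (SE 0.20, adjusted p = 5.25e-08). Slc13a5, the citrate transporter gene, had signals of 400.1, 293 and 308 against 6524, 6785 and 6164 and rose by 4.19 (SE 0.25, adjusted p = 1.87e-07). The genes that fell included the calcification inhibitor Mgp, with signals of 39242, 31177 and 37849.8 against 19589, 18127 and 15683 and a difference of -1.02 (SE 0.17, adjusted p = 0.00077), and Stc1, the stanniocalcin hormone gene (-2.36).

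Matrix proteases rose more often than they fell: 11 of 23 tested proteases and inhibitors rose and 3 fell, against 12.4% and 12.7% of all tested genes. Leaving out litter 2 left 7 that rose. Mmp9, the gelatinase gene, had signals of 2176, 2119 and 2542 in the round and 50468, 52831 and 41858 in the hypertrophic layers and rose by 4.39 (SE 0.14, adjusted p = 5.08e-09). Ctsk, the collagen-degrading cathepsin gene of osteoclasts, rose by 2.22 (SE 0.15, adjusted p = 5.27e-07). The serine protease genes Htra1 and Htra4 went the other way, Htra1 with signals of 13592, 13633 and 11285 against 3609, 3063 and 3215 and a difference of -1.95 (SE 0.13, adjusted p = 4.22e-07), and Htra4 with a difference of -2.70 (SE 0.39, adjusted p = 0.000262).

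Markers of cells from the marrow front moved with these results. Of 15 tested osteoclast markers 13 rose and none of the 15 fell, with a median of 2.22, and their summed signal went from 10238 to 11271 on the round arrays to 82437 to 107518 on the hypertrophic arrays. Acp5, the tartrate-resistant acid phosphatase gene, had signals of 816, 982 and 1473 against 23833, 27139 and 19038 and rose by 4.42 (SE 0.23, adjusted p = 7.15e-08). Ocstamp and Dcstamp, which encode membrane proteins needed for osteoclast precursors to fuse, had round signals of 5.50, 17.5 and 48.9 and 13.0, 21.1 and 53.0 and hypertrophic signals of 1662, 1742 and 1012 and 782, 963 and 843. They rose by 4.96 (SE 0.38, adjusted p = 1.47e-06) and 4.07 (SE 0.37, adjusted p = 6.27e-06). Their round signals lay near the added constant of 26, so the sizes depend on it: with a constant 4 times as large the differences were 3.60 and 2.87, and with one 4 times smaller 5.84 and 4.77, all past the threshold. Atp6v0d2, a proton pump subunit gene, rose by 3.83 (SE 0.25, adjusted p = 4.09e-07). Mmp9, Ctsk, Car2 and Itgb3, counted in other groups as well, belong to these markers.

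Markers of macrophages (9 of 18 rose, 1 fell, or 2 fell without litter 2 or its hypertrophic array) and of neutrophils and myeloid precursors (5 of 5 tested rose, with 8 more below the filter, and 3 of 5 without litter 1 or 3 or the hypertrophic array of litter 3) were also higher. The summed signal of the macrophage markers was 19006 to 21714 in the round and 34261 to 43550 in the hypertrophic layers. Cd68, a lysosomal marker of phagocytes, rose by 2.36 (SE 0.20, adjusted p = 3.99e-06), whereas the complement genes C1qa, C1qb and C1qc differed by -0.03, -0.14 and -0.31 and did not pass. S100a8, a calcium-binding protein gene of neutrophils, rose by 2.13 (SE 0.18, adjusted p = 3.01e-06). Among 10 tested osteoblast markers 6 rose and 1 fell, 4 of the 6 being Dmp1, Ibsp, Phex and Sp7, and Col1a1 had signals of 87709, 61735 and 68139 in the round and 68908, 71968 and 65572 in the hypertrophic layers, which overlapped, and leaving out the hypertrophic array of litter 1 left 4 that rose. The 1 fall, Postn, was lost without litter 2 or 3, the round array of litter 3 or the hypertrophic array of litter 1 or 2. Of 25 tested endothelial and pericyte markers 4 rose and 5 fell, with the vessel antigen gene Pecam1 at 0.21. Erg, among the 5 that fell, was counted with the joint surface genes as well. Without litter 2 the counts were 1 and 3, while 2 rose without litter 1, its round or hypertrophic array or the hypertrophic array of litter 2. Erythroid markers (2 of 5 tested rose, or 1 without any 1 array of the 6 other than the round array of litter 3), the markers of adipocytes, Schwann cells and keratinocytes (1 of 9 rose, 2 fell, or 1 fell without litter 1 or 3, the round array of litter 3 or the hypertrophic array of litter 1) and those of lymphocytes, mast cells and platelets (none of 8 rose, Pf4 fell, and 2 rose without the hypertrophic array of litter 2 and 1 without that litter) completed the lists. The main fit called 36% of the tested endothelial and pericyte markers and 40% of the erythroid markers. It called 33.3% of the adipocyte, Schwann and keratinocyte markers and 12.5% of the lymphocyte, mast cell and platelet markers. Over all tested genes the share was 25.1%. The part of the cell types of these lists in the rise of the bone matrix, protease and hypertrophic genes was not tested.

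**Figure D3:**
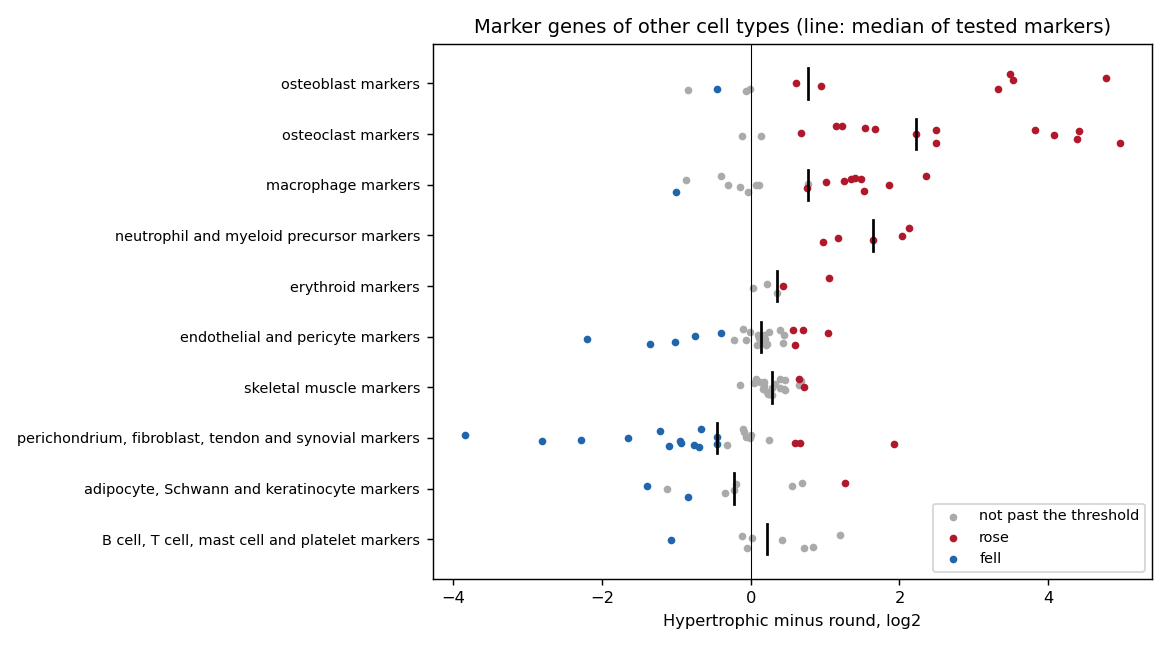
Difference (hypertrophic minus round, log2) of each tested marker gene of 10 other cell types, with 1 point per gene, red where it rose, blue where it fell and grey where it did not pass, and a line at the median of the tested markers. Osteoclast markers lie to the right with a median of 2.22, markers of perichondrium, fibroblasts, tendon and synovium lie mostly to the left with a median of -0.46, and skeletal muscle markers have a median of 0.29.

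Transcription factor genes of cartilage and bone fell more often than they rose toward the hypertrophic end. Of 37 tested factors 18 fell and 8 rose, with a median of -0.48, which came to -0.25 without litter 2, -0.29 without its round array and -0.30 without its hypertrophic array. Sox9, which drives the cartilage programme, had signals of 1913, 2068 and 1875 in the round and 278, 431 and 239 in the hypertrophic layers and fell by 2.57 (SE 0.20, adjusted p = 1.76e-06). Its partner Sox5 had signals of 1604, 1503 and 1569 against 125, 97.0 and 72.8 and fell by 3.69 (SE 0.20, adjusted p = 9.43e-08), while the other partner, Sox6, fell by 0.90 (SE 0.14, adjusted p = 0.000619). The SOX genes thus differed in size, with the falls of Sox5 and Sox9 at 12.9-fold and 5.94-fold and that of Sox6 at 1.86-fold. Sp7, the osterix gene of mineralising cells, had signals of 245, 352 and 226 against 3908, 3131 and 2076 and rose by 3.33 (SE 0.23, adjusted p = 6.63e-07). Dlx5, a homeobox gene of bone and hypertrophic cartilage, had signals of 100.63, 221 and 228 against 2109, 2442 and 1409.7 and rose by 3.30 (SE 0.28, adjusted p = 3.99e-06). Runx3 and Mef2c, which promote hypertrophy, rose by 2.42 (SE 0.25, adjusted p = 2.05e-05) and 1.001 (SE 0.11, adjusted p = 4.26e-05). Outside this list, the Iroquois homeobox gene Irx5 had signals of 73.7, 96.2 and 64.9 against 1878, 1978 and 1318 and rose by 4.06 (SE 0.20, adjusted p = 5.57e-08).

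Genes of the hedgehog pathway were lower at the hypertrophic end for co-receptors and higher for the receptor that is also a target. Of 17 tested genes 9 fell and 1 rose, or 2 rose without litter 3 or its round array, with a median of -0.63. Cdon, a co-receptor gene that binds the ligand, had signals of 8517, 12139 and 9112 in the round and 459, 335 and 949.5 in the hypertrophic layers and fell by 4.15 (SE 0.25, adjusted p = 2.09e-07). Boc and Gas1, the other co-receptor genes, fell by 2.70 (SE 0.16, adjusted p = 2.12e-07) and 1.85 (SE 0.15, adjusted p = 2.88e-06). Smo, the gene of the signal transducer, fell by 0.63 (SE 0.12, adjusted p = 0.00288). Ptch1, the receptor gene that the pathway induces, had signals of 5167, 5173 and 4776 against 19720.5, 14944 and 11187 and was the gene of the 17 that rose, by 1.56 (SE 0.22, adjusted p = 0.000214). Gli1, the other common target gene, had signals of 1777, 982 and 1269 against 1059, 864 and 945, which overlapped, and did not pass (-0.44 (SE 0.19, adjusted p = 0.117)). Disp1, whose protein releases the lipid-bearing ligand, fell by 1.15 (SE 0.18, adjusted p = 0.000445).

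In the parathyroid hormone-related protein and cAMP pathway 2 of 25 tested genes rose and 7 fell, with a median of -0.12. The called share was 36%, against 25.1% of all tested genes. Beside Pth1r the gene that rose was Adcy3, an adenylyl cyclase (0.50). Nr4a2, an orphan receptor gene induced by cAMP, had signals of 3785, 5196 and 5551 against 1221, 1174 and 1070.4 and fell by 2.03 (SE 0.21, adjusted p = 2.21e-05). The falls came to 4 and the rises to 1 without litter 1 or 2 or the hypertrophic array of either, and the rises also without the round array of litter 2, where the median was -0.04. Hdac4, the deacetylase gene that holds back hypertrophy, fell by 0.75 (SE 0.17, adjusted p = 0.00556). Creb3l2, a membrane-bound factor gene of the secretory pathway of chondrocytes, fell by 0.92 (SE 0.14, adjusted p = 0.000535), although the mean of all its probe sets did not pass (adjusted p = 0.0887).

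Wnt genes moved both ways, with 9 of 37 tested genes that rose, 12 that fell and a median of -0.11. The antagonist gene Dkk1 had signals of 91.3, 103.94 and 79.2 in the round and 773, 1093 and 624 in the hypertrophic layers and rose by 2.83 (SE 0.32, adjusted p = 3.70e-05). The antagonist gene Sfrp2 had signals of 2000.1, 3264 and 2814 against 266, 369 and 412 and fell by 2.85 (SE 0.14, adjusted p = 6.78e-08). Apcdd1, a membrane-bound inhibitor gene, rose by 2.50 (SE 0.25, adjusted p = 1.68e-05). The secreted antagonists Dkk1 and Sfrp2 thus moved in opposite directions. The falls came to 8 without the round array of litter 2. The receptor genes Ror1 and Fzd8 fell by 1.97 (SE 0.21, adjusted p = 2.21e-05) and 1.74 (SE 0.22, adjusted p = 0.00011).

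BMP and TGF-beta genes fell more often than they rose, with 20 of 44 tested genes that fell, 6 that rose and a median of -0.44. Ltbp2, of the family of latent TGF-beta binding proteins, had signals of 4155, 3693 and 3306 against 287, 339.9 and 239 and fell by 3.58 (SE 0.19, adjusted p = 1.07e-07). Gdf10, a ligand gene, fell by 2.64 (SE 0.21, adjusted p = 2.26e-06) and Tgfbi, a TGF-beta-induced matrix gene, by 2.10 (SE 0.11, adjusted p = 7.43e-08). Bmp8a, another ligand gene, had signals of 112, 46.1 and 117 against 1008, 964 and 919 and rose by 3.14 (SE 0.32, adjusted p = 1.67e-05). The pseudoreceptor gene Bambi had signals of 478, 798 and 944 against 3023, 3139.8 and 2825 and rose by 2.03 (SE 0.21, adjusted p = 2.02e-05). The ligand gene Tgfb1, which lies outside the rule for naming and was added after its value was seen, rose by 1.84 (SE 0.16, adjusted p = 5.64e-06).

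Among FGF genes 5 of 15 tested fell and Fgfr3 rose, a called share of 40% against 25.1% of all tested genes. Fgf18, a ligand gene of the perichondrium that signals through Fgfr3, had signals of 1696, 739 and 559 in the round and 275, 182 and 97.4 in the hypertrophic layers and fell by 2.21 (SE 0.21, adjusted p = 9.08e-06). The round array of litter 1 was the highest, and without it the fall was 2.01 on the log2 scale. Fgfr3, the receptor gene that limits chondrocyte growth, had signals of 702, 574 and 545 against 1306, 1185 and 903 and rose by 0.86 (SE 0.16, adjusted p = 0.00184). Of 22 tested genes of the IGF and growth hormone pathway 11 fell and 2 rose, with a median of -0.54. Igf1 had signals of 11360.0, 12322 and 8774 against 3949, 5616 and 4082 and fell by 1.25 (SE 0.14, adjusted p = 3.70e-05). Pappa2, a protease gene that frees the growth factor from its binding proteins, fell by 3.15 (SE 0.23, adjusted p = 1.26e-06), and the growth hormone receptor gene Ghr by 1.39 (SE 0.13, adjusted p = 6.27e-06). In the Notch pathway 3 of 17 tested genes rose and 2 fell, a called share of 29.4% against 25.1% of all tested genes. Without litter 3, 1 rose, and 1 fell without litter 1 or 2 or the round or hypertrophic array of either. Heyl, a target gene, rose by 1.38 (SE 0.16, adjusted p = 5.13e-05).

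Vessel-related ligand genes differed in direction. Of 21 tested angiogenic and anti-angiogenic factors 6 rose and 8 fell, and 3 rose without litter 2. Pgf, a ligand of the VEGF family, had signals of 282, 96.0 and 100.2 against 429, 804 and 404 and rose by 1.70 (SE 0.38, adjusted p = 0.00582). Vegfc, the lymphatic vessel ligand gene, fell by 1.56 (SE 0.19, adjusted p = 6.96e-05), Cnmd, the chondromodulin gene that repels vessels, by 1.32 (SE 0.24, adjusted p = 0.00157), and the receptor gene Nrp2 rose by 1.85 (SE 0.19, adjusted p = 1.71e-05).

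Cell cycle genes showed few differences. Of 36 tested genes of S phase 4 rose and 2 fell, and of 33 tested genes of mitosis 4 rose and 1 fell, so that 30 and 28 did not pass and the shares were at or below those of all tested genes. None of the mitosis genes rose without litter 1 or 2, or without the round or the hypertrophic array of either, and 2 rose without the hypertrophic array of litter 3, while the 1 fall was lost without any 1 of the 6 arrays. None of the S phase genes rose without litter 2 or 3, or without the hypertrophic array of either, and at most 2 without litter 1, its hypertrophic array or the round array of litter 2 or 3. The falls of S phase came to 1 without litter 2 or 3 or the round or hypertrophic array of either. Mki67, the marker gene of cycling cells, had signals of 5193, 4966 and 5964 in the round and 4053, 4137 and 4696 in the hypertrophic layers. These did not overlap, but the difference did not pass (-0.32 (SE 0.12, adjusted p = 0.0688)), except after quantile normalisation (-0.35, adjusted p = 0.0461). Among 19 tested CDK inhibitors and genes of cell cycle exit 3 rose and 4 fell, or 36.8% called against 25.1% of all tested genes. Cdkn1a, the p21 inhibitor gene, had signals of 4822, 3828 and 4217 against 11718, 9983 and 11639.6 and rose by 1.37 (SE 0.12, adjusted p = 5.13e-06). Cdkn1c, the p57 inhibitor gene known for its part in hypertrophy, had signals of 25751, 22713 and 23406 against 14089, 18012 and 18896 and fell by 0.50 (SE 0.14, adjusted p = 0.0162), a call lost without the hypertrophic array of litter 1 (adjusted p = 0.101) or 3 (0.0559), without litter 1 (0.105) and without litter 2 (0.0622). Gadd45g, a stress-induced growth arrest gene, rose by 2.13 (SE 0.18, adjusted p = 3.22e-06), and the cyclin genes Ccnd1 and Ccnd2 fell by 0.65 (SE 0.13, adjusted p = 0.00324) and 0.73 (SE 0.12, adjusted p = 0.00106). With the mean of all its probe sets Ccnd1 was at -0.32 and did not pass (adjusted p = 0.0926).

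Oxygen and energy genes differed by group. Of 35 tested genes of the hypoxia response and glycolysis 9 fell and 3 rose, a called share of 34.3% against 25.1% of all tested genes. Car9, a carbonic anhydrase gene induced by low oxygen, had signals of 599, 1714 and 1338 against 74.6, 248 and 153 and fell by 2.74 (SE 0.19, adjusted p = 7.07e-07), while the stress gene Ddit4 rose by 1.58 (SE 0.21, adjusted p = 0.000178). Of 33 tested genes of oxidative phosphorylation 18 rose and none of the 33 fell, with a median of 0.43, and Ndufa4 led with signals of 2544, 3329.8 and 3192 against 5793, 6938 and 6384 and a rise of 1.08 (SE 0.13, adjusted p = 8.00e-05). The count depended on single arrays: 4 rose without litter 2 or its hypertrophic array, 7 and 9 without the round array of litter 3 or 2, 11 without litter 3 or the hypertrophic array of litter 1 or 3, 24 without the round array of litter 1, and 6 without the litter block. The medians by litter were 0.23, 0.58 and 0.52, and those of 22 skeletal muscle markers, of which Neb and Myog rose, were -0.49, 0.61 and 0.85. None of the 22 muscle markers rose without litter 2 or 3, the hypertrophic array of either or the round array of litter 3, and 1 without the round array of litter 2, while 17 rose without litter 1, 14 without its round and 10 without its hypertrophic array. In the main fit 9.09% of the muscle markers were called, against 25.1% of all tested genes. With the muscle score as a covariate 14 of the 33 oxidative phosphorylation genes rose. Of 20 tested genes of cholesterol synthesis 4 rose and 1 fell, or 1 and none without litter 2, and 2 rose without its hypertrophic array. The called share of 25% was near the 25.1% of all tested genes. The rises of the hypoxia group came to 1 without litter 1 or its hypertrophic array.

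Genes of the secretory pathway and the lysosome rose more often than they fell. Of 44 tested genes of collagen processing, secretion and the unfolded protein response 17 rose and 4 fell, with a median of 0.31. The rises came to 10 without litter 2 and 11 without the hypertrophic array of litter 1, and the falls to 7 without the round array of litter 1. Loxl4, a lysyl oxidase-like gene for collagen cross-linking, had signals of 141, 139.8 and 148 against 1440.0, 1706 and 1477 and rose by 3.21 (SE 0.25, adjusted p = 1.87e-06). Lox rose by 1.72 (SE 0.19, adjusted p = 3.95e-05), and Chac1, a stress gene of the ATF4 branch, by 1.92 (SE 0.22, adjusted p = 5.27e-05). Of 28 tested lysosome and autophagy genes 11 rose and 3 fell, with 5 that rose without litter 2 and 7 without litter 1 or the hypertrophic array of litter 1 or 2. Arsb, a sulfatase gene that degrades glycosaminoglycans, rose by 1.32 (SE 0.13, adjusted p = 1.77e-05). Lpl, the gene of lipoprotein lipase, a secreted and not a lysosomal enzyme, rose by 1.52 (SE 0.23, adjusted p = 0.000353).

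Genes of sulfation and glycosaminoglycan synthesis split evenly, with 7 of 33 that rose and 7 that fell, 42.4% called against 25.1% of all tested genes. Without litter 2 or 3 both counts came to 4, as did the rises without the round array of litter 2 or the hypertrophic array of litter 2 or 3. Chst13, a chondroitin sulfotransferase gene, had signals of 21.8, 44.1 and 39.9 against 545, 423 and 308 and rose by 2.87 (SE 0.30, adjusted p = 2.21e-05). Fam20c, the kinase gene of secreted phosphoproteins such as Dmp1, had signals of 819.9, 652 and 701 in the round, 659, 721 and 732 in the flat and 2455, 3030.1 and 2309 in the hypertrophic layers and rose by 1.80 (SE 0.15, adjusted p = 4.13e-06). Its flat and round signals overlapped. Has1, a hyaluronan synthase gene, fell by 2.39 (SE 0.34, adjusted p = 0.000273).

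Among 33 tested genes of ion and water transport and cell volume 10 rose and 11 fell, with 6 that fell without litter 2 and 7 without litter 1 or the hypertrophic array of litter 1 or 2. Aqp1, the water channel gene, had signals of 15981, 15591 and 13677 against 4158, 3701 and 2794 and fell by 2.09 (SE 0.12, adjusted p = 1.41e-07). The sodium-calcium exchanger genes went opposite ways: Slc8a3 rose by 1.88 (SE 0.15, adjusted p = 2.36e-06) and Slc8a1 fell by 2.18 (SE 0.41, adjusted p = 0.00185). Of 25 tested genes of the Bcl2 and caspase families and related death genes 6 rose and 2 fell, with 3 that rose without the hypertrophic array of litter 1 and 1 that fell without litter 2 or its round array. In the main fit 32% of these death and survival genes were called, against 25.1% of all tested genes. Pmaip1, which encodes the death protein NOXA, had signals of 51.6, 87.5 and 126 against 476, 415 and 459 and rose by 2.11 (SE 0.27, adjusted p = 0.000106). Of 23 tested integrins and laminins 8 fell and 4 rose, with 5 that fell without litter 1 or 2 or the round or hypertrophic array of either, and 1 that rose without litter 2 or its round array and 2 without litter 1 or the hypertrophic array of litter 1 or 2. They included Itgbl1, an integrin-like secreted protein gene, which fell by 3.31 (SE 0.17, adjusted p = 7.15e-08), and Itgb3, the integrin subunit gene of osteoclasts, which rose by 2.49 (SE 0.15, adjusted p = 2.10e-07). Of 31 tested genes of the primary cilium and planar polarity 10 fell and 1 rose, or 35.5% called against 25.1% of all tested genes. The falls came to 5 without litter 2 or its hypertrophic array and 6 without litter 3, its hypertrophic array or the round array of litter 2, and 2 rose without the round array of litter 3. Pkd1, the polycystin gene, fell by 1.88 (SE 0.18, adjusted p = 8.46e-06), and Vangl2, a polarity gene, rose by 1.13 (SE 0.23, adjusted p = 0.00333).

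**Figure D4:**
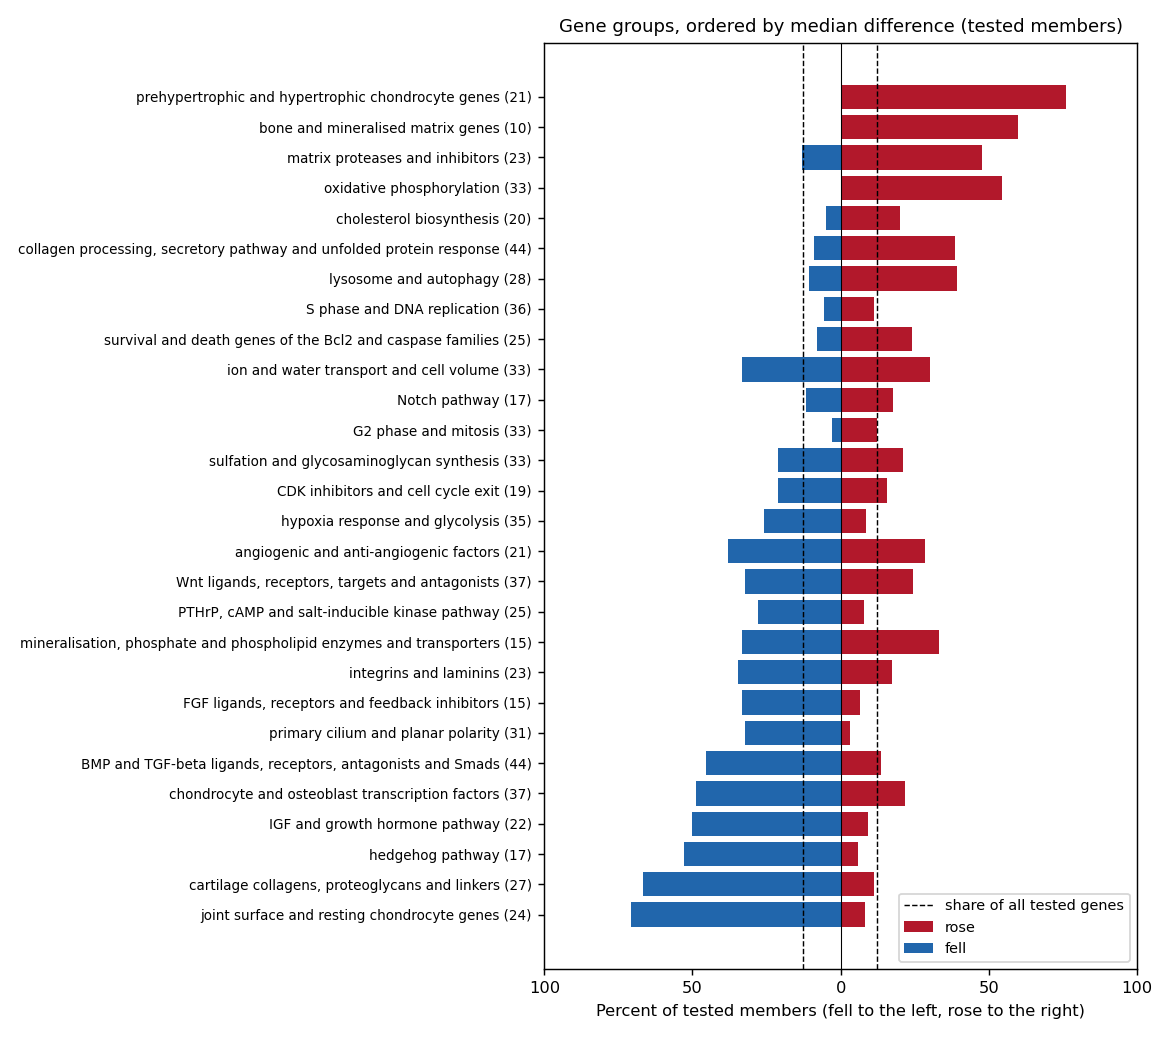
Percent of the tested members of 28 gene groups that rose (red, to the right) or fell (blue, to the left), ordered by the median difference, with the number tested in parentheses. Dashed lines mark the shares of all tested genes (12.4% rose, 12.7% fell), and the groups at the top and bottom are the prehypertrophic and hypertrophic genes (16 of 21 rose) and the joint surface and resting genes (17 of 24 fell).

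The last of the 30 genes with the largest differences fell outside the lists. Gal, the galanin neuropeptide gene, had signals of 37.4, 22.1 and 90.8 in the round and 1009, 1115 and 981 in the hypertrophic layers and rose by 3.90 (SE 0.32, adjusted p = 3.01e-06). Gzme, a granzyme gene, had signals of 16.7, 99.0 and 10.7 against 806, 1071 and 623 and rose by 3.85 (SE 0.32, adjusted p = 2.87e-06). The only probe set of Gzme carries the x_at suffix, which marks probes that may also match related sequences. Lipi, a phospholipase gene, had signals of 3.93, 49.1 and 13.1 against 678, 547 and 613 and rose by 3.84 (SE 0.36, adjusted p = 8.11e-06). The round signals of these 3 genes were at most 99.0 on every array, so their folds depend on the added constant.

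The flat layer placed the genes along the cartilage. Its position is the share of the difference between the ends that its mean had covered, 0% at the round and 100% at the hypertrophic layer, and it is a description because the same end arrays define it. Over the 464 genes that rose at least 2-fold the median position was 48.5%, and over the 549 that fell it was 61.9%. Of the genes that rose, 126 (27.2%) lay in the part nearest the round layer, 161 (34.7%) in the middle and 106 (22.8%) nearest the hypertrophic layer when the span was divided in 3, and 41 (8.84%) went beyond the hypertrophic and 30 (6.47%) beyond the round level. Of those that fell the same shares were 13.5%, 41.5%, 32.4%, 10.2% and 2.37%. Among the joint genes Barx1 (125, 56.6 and 59.5 in the flat layer, position 97.2%) and Prg4 (707, 191 and 256, 88.7%) were near the hypertrophic level in the flat layer already, whereas Ucma (593, 601 and 586) stood at 43.3%. Among the genes that rose, Alpl (7505, 10316 and 4468) stood at 82.4%, Pth1r at 76.2% and Ibsp at 73.5%, while Col10a1 (470.1, 931 and 590.3) stood at 36.1%, Mmp13 at 36.5% and Acp5 at 30.8%. Hapln1 and Acan had reached 99.5% and 96.6% in the flat layer, and Igf1 had reached 13.2%.

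**Figure D5:**
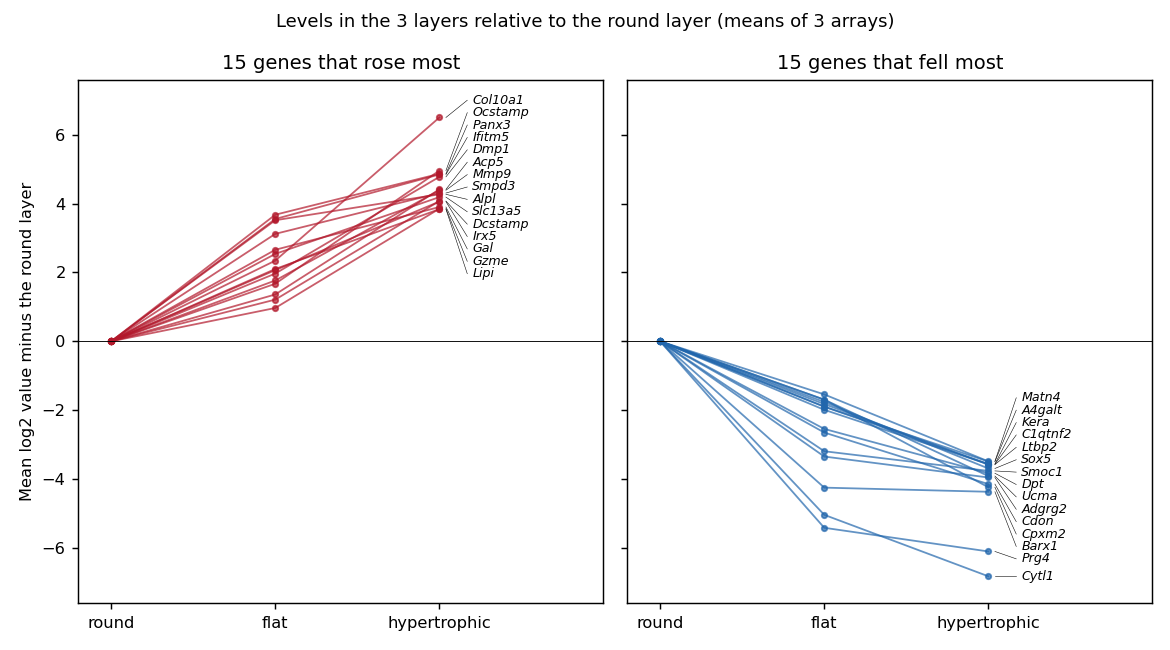
Mean log2(signal + 26) of 3 arrays in the round, flat and hypertrophic layers, relative to the round layer, for the 15 genes that rose most (left) and the 15 that fell most (right). Lines that bend at the flat layer differ in where the change lies: Prg4, Cytl1 and Barx1 cover most of it between round and flat, and Col10a1 and Gzme cover most of it between flat and hypertrophic.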

How the data were processed

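The 9 arrays of the series, 3 per layer, entered the analysis. The authors deposited intensity values, MAS5 signals from Affymetrix Expression Console per the submitters' processing notes, whose versions are not given in the sources used here. A linear scaling to a 2% trimmed mean of 500.003 on each array was read from the deposited values. Of 45101 probe sets, 64 controls were left out, 34945 named 1 gene, 932 several and 9160 none in the platform annotation, and 34741 were updated through gene identifiers to RefSeq symbols. The probe set with the highest mean over the 9 arrays stood for its gene. Of the called genes 1349 had another tested probe set, with the opposite sign for 248 and past the threshold in that opposite direction for 4 (Gmps, Rbmx, Tcf25 and Uhrf1bp1l), none of which is described here.

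Log2(signal + 26) was fitted with limma 3.58.1 in R 4.3.3 (lmFit, eBayes with trend) on all 9 arrays with layer and litter. Genes were tested if their mean log2 value exceeded 7.212, the median over probe sets other than controls, and p-values were Benjamini-Hochberg adjusted over all 11313. Per the labels 3 litters gave the triplicates, but no label ties a replicate number to a litter. The numbers were taken as litters because 3 litters gave the triplicates and each sample was tissue of 1 litter. Deviations from layer means correlated at 0.167 to 0.517 between layers of the same number and -0.434 to 0.081 between numbers. Deviations sum to 0 within a layer, so a positive value at the same number lowers the others. Any link between arrays of 1 number would look alike, so these values cannot show that a number is a litter. The script was tested on simulated data with known changes.

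Named genes were the 15 largest rises and 15 largest falls with 1 direction in all litters, up to 5 called members per list, every called member of lists with 6 or fewer, and a set of checks. Adcy3, Apoe, Bmp6, C1qa, C1qb, C1qc, Col1a1, Col1a2, Dcn, Fgfr1, Lum, Mef2d, Pecam1, Postn, Runx3, Smo, Snorc, Stmn1 and Tgfb1 were added after their values were seen. Members and lists were chosen with earlier results of these data known. Alternatives changed the constant, filter, scaling, probe set rule, block, covariate and arrays.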

Additional observations from a re-analysis of the deposited data

How the results depend on the processing

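Over 23 alternatives no called gene was called in the opposite direction, and the 30 genes with the largest differences kept their calls wherever tested. A change of constant or scaling picked the highest probe set again, so a gene could be read from another probe set there. None of the alternatives tried each probe set of a gene in turn. Of 194 named genes tested, 138 kept direction and call throughout. Sizes moved even where calls held: Stc1 ranged from -2.49 to -1.13, Ror1 from -2.18 to -1.02 and Nr4a2 from -2.26 to -1.18. Without the replicate block 862 genes rose and 962 fell, 1824 of the 2840 calls being kept, and the litter as a random block gave 1325 and 1380. Leaving out single arrays or litters gave 742 to 1492 genes that rose and 826 to 1473 that fell. The mean of all probe sets of a gene gave 1086 and 1000, and a filter at the 75th percentile 1041 and 1097. Dropping 2 arrays at once, round of litter 1 and flat of litter 3, chosen after seeing the data, gave 1683 and 1528. Vegfa, which did not pass, turned to 0.0435 with the muscle score as a covariate, 0.203 without litter 2 and 0.277 without the round array of that litter, in a range from -0.321 to 0.277 over arrays and litters left out. With the mean of all probe sets Notch4 turned to -0.0612, Notch2 to 0.223, Kif23 to 0.0583 and Msmo1 to -0.0527, none past the threshold. The causes of these turns were not tested. The median of 10 of 38 lists changed sign in an alternative. With 3 litters, small differences and genes of low signal stay imprecise.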

Other observations

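The genes below were chosen one by one after their values were seen, belong to no gene list here and stand for no group. Vdr, the vitamin D receptor gene, had signals of 198, 194 and 142 in the round and 1973, 2202 and 1921 in the hypertrophic layers and rose by 3.34 (SE 0.17, adjusted p = 6.78e-08) in limma. Irx3, an Iroquois homeobox gene of the family of Irx5, had signals of 241, 207 and 297 against 1304, 1445 and 1286 and rose by 2.33 (SE 0.19, adjusted p = 2.72e-06). Lepr, the leptin receptor gene, rose by 1.87 (SE 0.14, adjusted p = 1.12e-06), Sstr2, a somatostatin receptor gene, by 2.12 (SE 0.23, adjusted p = 2.40e-05), and Cnr1, a cannabinoid receptor gene, by 2.09 (SE 0.37, adjusted p = 0.00139). Casr, the calcium-sensing receptor gene, went the other way, with signals of 588, 379 and 558 in the round and 55.5, 85.5 and 40.4 in the hypertrophic layers and a difference of -2.64 (SE 0.45, adjusted p = 0.00102).

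Stra6, the retinol uptake receptor gene, had signals of 9.37, 29.1 and 11.8 in the round, 735, 1029 and 407 in the flat and 378, 372 and 473 in the hypertrophic layers, so that it rose by 3.36 (SE 0.31, adjusted p = 7.08e-06) while its flat mean was the highest of the 3 layers. Penk, the proenkephalin gene, had signals of 7685, 9306 and 6554 in the round and 1211, 1170.1 and 1012 in the hypertrophic layers and fell by 2.76 (SE 0.14, adjusted p = 6.78e-08).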
